A study of Homo sapiens with 9 samples.

Results

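The RNA of 9 genes of MHC class I presentation was followed in H358 cells after knockout of either catalytic subunit of the SWI/SNF chromatin remodelling complexes. The genes were taken from a fixed list, namely HLA-B, HLA-C, HLA-E, HLA-F, B2M, TAP1, TAP2, TAPBP and NLRC5. They are 9 of 58237 annotated genes, and all 9 were among the 18205 that passed the filter on low counts. H358, a line from a human non-small cell lung cancer, was grown in RPMI with fetal bovine serum and profiled by RNA-seq of total RNA. Parental cells, cells with SMARCA4 (the gene of BRG1) knocked out by CRISPR and cells with SMARCA2 (the gene of BRM) knocked out by CRISPR gave 3 libraries each. The sources used here do not give the guide sites or say if the knockouts are clones or pools. The unedited parental line was the only control, so effects of editing and of losing the gene cannot be told apart.

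MHC class I molecules display short peptides from inside the cell to CD8 T cells and to receptors of natural killer cells. The proteasome cuts the peptides, the TAP1-TAP2 transporter carries them into the endoplasmic reticulum, and tapasin (TAPBP) holds the transporter and an empty heavy chain together while a peptide is loaded. A loaded molecule is a heavy chain, such as HLA-B, paired with the invariant light chain beta-2-microglobulin (B2M). NLRC5 is the transactivator of class I genes, and interferons and NF-kB are the classical inducers of the pathway. Only RNA was measured, and class I protein at the cell surface was not analysed here.

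Promoter sequences from RefSeq (GRCh38.p14) matched 7 of the 9 genes, and HLA-E and NLRC5 had no entry. The stretches upstream of HLA-B, HLA-C and B2M are shown because the factors that classically bind there, IRF1 and NF-kB, were themselves measured. They are reference sequence and not that of H358. Capitals mark matches to 2 motifs, searched on both strands over 250 bases before each start. These were AANNGAAA, the core of an interferon regulatory factor (IRF) element, present in 20.3% of 35116 promoters of the same length, and an NF-kB site of 10 letters, present in 5.07%. The letters of the motifs were chosen with these sequences already seen, and a match describes letters only. The stretches lie at chr6:31357189-31357429 (minus strand, HLA-B), chr6:31272093-31272342 (minus strand, HLA-C) and chr15:44711267-44711486 (plus strand, B2M).
HLA-B: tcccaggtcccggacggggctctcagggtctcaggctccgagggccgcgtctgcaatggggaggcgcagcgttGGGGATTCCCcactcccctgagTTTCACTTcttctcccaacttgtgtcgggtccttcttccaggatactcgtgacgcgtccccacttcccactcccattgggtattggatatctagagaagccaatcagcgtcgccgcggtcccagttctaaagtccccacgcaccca
HLA-C: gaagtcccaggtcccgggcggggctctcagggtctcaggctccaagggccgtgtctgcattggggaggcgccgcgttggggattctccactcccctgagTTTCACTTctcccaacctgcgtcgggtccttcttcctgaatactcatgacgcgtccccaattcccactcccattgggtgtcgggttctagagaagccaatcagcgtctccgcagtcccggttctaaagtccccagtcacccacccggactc
B2M: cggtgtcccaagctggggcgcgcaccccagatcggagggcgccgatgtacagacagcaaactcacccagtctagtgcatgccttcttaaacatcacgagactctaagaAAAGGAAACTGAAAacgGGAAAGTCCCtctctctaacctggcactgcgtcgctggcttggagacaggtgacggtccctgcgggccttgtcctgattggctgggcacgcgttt
The HLA-B and HLA-C stretches carry the same 8 letters of the IRF element, TTTCACTT. An NF-kB match, GGGGATTCCC, stands just upstream of it in HLA-B, and the NF-kB motif has no match in the HLA-C window. In B2M the IRF motif matches at 2 overlapping positions, followed by the NF-kB match GGAAAGTCCC.

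The libraries held 31969961 to 40679073 estimated reads. Levels below are counts per 1e6 reads (CPM) after scaling by trimmed mean of M-values (TMM), and values per length are transcripts per 1e6 (TPM). SMARCA4 measured 244, 216 and 212 CPM in the parental libraries, 23.9, 21.2 and 23.6 in the BRG1 knockout, and 240, 245 and 249 in the BRM knockout. SMARCA2 measured 49.3, 58 and 55.5 CPM in the parental libraries, 10.3, 12 and 9.36 in the BRM knockout, and 42.4, 32 and 61.3 in the BRG1 knockout. Each edited gene was therefore lowest in the libraries labelled with its knockout. Of 9 epithelial markers, 8 passed 1 CPM in at least 1 parental library, and SFTPB stayed under it in every group. Their summed level was 6430 to 6538 CPM in the parental libraries, 441 to 1299 in the BRG1 knockout and 5909 to 7159 in the BRM knockout. Markers of fibroblasts summed to 31.1 to 62.3, 390 to 1024 and 82.4 to 127 CPM in the same order, markers of endothelium to 4.57 to 9.4, 4.55 to 4.66 and 47.8 to 75.5, mostly KDR, and markers of myeloid cells to 2.12 to 3.29, 6.93 to 8.47 and 1.59 to 3.52, with AIF1 at 0 reads throughout. The fibroblast sum of the BRG1 knockout was mostly COL1A1 and COL3A1, with some PDGFRB. COL1A2 averaged 0.878 CPM in the parental libraries and 0.634 in the BRG1 knockout, and LUM 12.2 and 12.7. DCN stayed under 1 CPM throughout. The myeloid sum of the BRG1 knockout was mostly CSF1R, with a mean of 6.77 CPM against 1.38 in parental. CD14 averaged 0.937 against 1.11. The 5 leukocyte markers summed to 66.6 to 77.8 CPM in the parental libraries, 12.8 to 17.3 in the BRG1 knockout and 29.3 to 43.7 in the BRM knockout, mostly LAPTM5 and CORO1A, with PTPRC and CD53 under 1 CPM throughout. All 5 T and NK cell markers stayed under 1 CPM in every library, and CD3D, CD2 and NKG7 had 0 reads. The part of these marker shifts in the class I values was not tested. Bulk RNA cannot tell fewer cells of a type from less RNA per cell.

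Relative to the other genes of each library, the class I set did not move as 1 block in either knockout. Against parental, BRG1 loss came with more B2M and less TAP1 and TAP2, and BRM loss with more HLA-E and HLA-F and less TAP2. In the BRG1 knockout 3 of the 9 genes were called in either direction, against 43.5% of all genes tested: 1 was higher, against 21.6%, and 2 were lower, against 21.9%, by edgeR's quasi-likelihood test with Benjamini-Hochberg adjustment over all genes. Their median log2 fold change was -0.26, against -0.01 for all genes tested. In the BRM knockout 3 were called, against 37.4% of all genes, 2 of them higher (21.0%) and 1 lower (16.4%), and the median was 0.49 against 0.09. Between the knockouts 4 were called, against 45.3% of all genes, 2 of them higher in the BRG1 knockout (21.6%) and 2 lower (23.8%), with a median of -0.42 against -0.00. These shares are near those of the background, so the counts set nothing apart about the 9 genes as a group. Both comparisons against parental use the same 3 parental libraries. Below, SE is an approximate standard error derived from the test statistic, and n = 3 libraries per group. The labels number the replicates without saying that they are separate cultures, so the p-values measure the spread between these libraries, which may be technical.

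**Figure D1:**
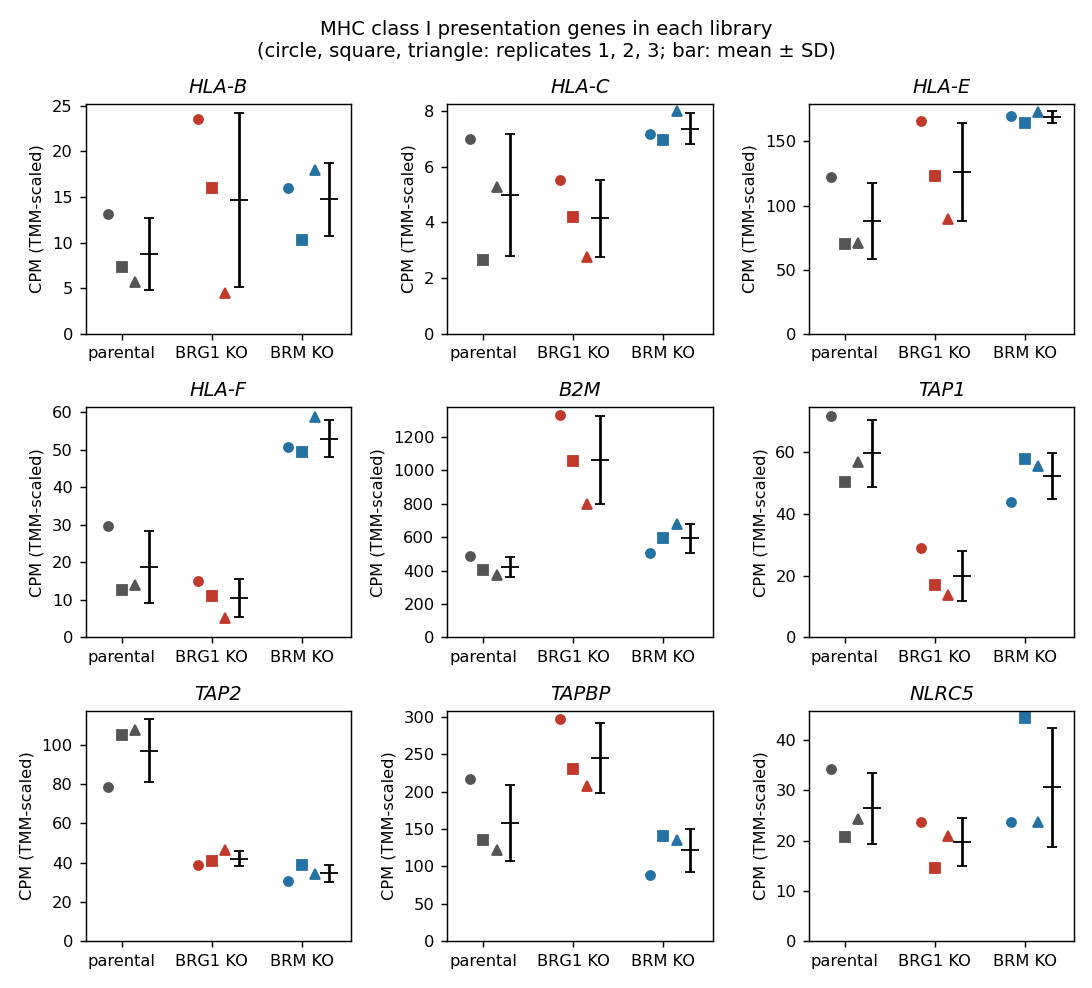
TMM-scaled CPM (vertical axes, from 0) of the 9 class I genes in each library of the parental line, the BRG1 knockout and the BRM knockout. Circles, squares and triangles are replicates 1, 2 and 3, and the black bars give the mean ± SD (n = 3). B2M stands clear of parental in the BRG1 knockout (799 to 1329 against 375 to 487), TAP2 is low in both knockouts, and HLA-F in the BRM knockout (49.4 to 58.6) lies above the other 6 libraries.

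Per length, B2M was by far the most abundant of the 9 in every group, with a mean of 1570 ± 167 TPM (SD, n = 3) in the parental libraries. TAPBP followed at 82.4 ± 26.3, HLA-E at 61.1 ± 18.3 and TAP2 at 55.5 ± 12.4 TPM, and each of these neighbours overlapped the next. TAP1 came next at 34 ± 3.75 TPM, apart from TAP2, and then HLA-F at 27.3 ± 12.8, HLA-B at 19.4 ± 7.16, HLA-C at 13.5 ± 5.64 and NLRC5 at 11.9 ± 3.76, each overlapping its neighbour. By these gene sums, the classical heavy chains HLA-B and HLA-C sat near the bottom of the order in the parental libraries. Their places are uncertain, because 94.6% of HLA-B reads went to transcripts annotated as retained introns and 95.2% of HLA-C reads to 1 model of 782 bases. The part of the alleles of H358 in this order was not tested. In the BRM knockout HLA-F moved up to the third place at 78.9 ± 5.78 TPM, below HLA-E at 104 ± 4.11 and above TAPBP at 58.1 ± 13.1, apart from both. In the BRG1 knockout B2M measured 3489 ± 728 TPM, TAP2 18.6 ± 4.51 and TAP1 10.8 ± 4.69 TPM, and from HLA-B in the fourth place down to NLRC5 every neighbour overlapped the next.

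In the parental line and the BRG1 knockout, the same library was the highest of its group for most of the 9 genes. Parental replicate 1 was the highest parental library for 8 of the 9, TAP2 being the exception, and it was the highest for 45.1% of all genes tested. BRG1 knockout replicate 1 was likewise the highest of its group for 8 of 9, again without TAP2 (29.6% of all genes), and BRG1 knockout replicate 3 the lowest for 7 of 9 (39.3%). No such order was seen in the BRM knockout, where replicate 3 was the highest for 5 and replicate 2 for 4, and replicates 1 and 2 were each the lowest for 4. The same BRG1 knockout replicates also differed in ribosomal protein RNA, which took 9.57%, 10.1% and 5.42% of reads in replicates 1, 2 and 3, against 4.57% to 5.36% in the parental libraries. Replicate 3 also stood apart in markers. In replicates 1, 2 and 3, KRT19 measured 123, 220 and 0.277 CPM, CDH1 78.7, 86.1 and 6.64, and COL3A1 84.5, 109 and 739. COL1A1 did not follow COL3A1, at 249, 283 and 208 CPM. The part of these library differences in the class I values was not tested beyond leaving libraries out.

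HLA-B, a classical heavy chain that presents to CD8 T cells, varied widely between libraries of a group. It measured 13.2, 7.36 and 5.7 CPM in the parental libraries, 23.5, 16 and 4.48 in the BRG1 knockout, and 16, 10.3 and 18 in the BRM knockout. BRG1 knockout replicate 3 lay below every parental library while the other two lay above them, so the groups overlapped. The log2 fold change against parental was 0.75 ± 0.52 (SE) in the BRG1 knockout (edgeR adjusted p = 0.27) and 0.76 ± 0.52 in the BRM knockout (adjusted p = 0.28), neither past the threshold. Without BRG1 knockout replicate 3 the former was 1.11 (adjusted p = 0.022), a call that rests on leaving out that library. With parental replicate 1 left out as well it was 1.51 (adjusted p = 0.0021), and the BRM knockout value was 1.07 (adjusted p = 0.0094). Most HLA-B reads were assigned to transcripts annotated as retained introns. The protein-coding transcript HLA-B-249 held 41.4, 17.8 and 27.4 estimated reads in the parental libraries and 21.6, 17.6 and 13.4 in the BRG1 knockout. In the BRM knockout it held 20.9, 16.2 and 49.2. A rise of protein-coding HLA-B RNA is therefore not shown.

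HLA-C, the classical heavy chain that killer-cell immunoglobulin-like receptors also read, had the fewest reads of the 9 genes. Its level was 7, 2.66 and 5.27 CPM in the parental libraries, 5.51, 4.18 and 2.74 in the BRG1 knockout, and 7.16, 6.96 and 8 in the BRM knockout. Every BRM knockout library exceeded every BRG1 knockout library, and both groups overlapped parental. The log2 difference between the knockouts was -0.83 ± 0.36, BRG1 minus BRM, which missed the threshold (edgeR adjusted p = 0.079) and passed it without parental replicate 2 (-0.83, adjusted p = 0.04). Against parental the values were -0.26 ± 0.36 in the BRG1 knockout (adjusted p = 0.58) and 0.57 ± 0.35 in the BRM knockout (adjusted p = 0.23).

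HLA-E, which presents leader peptides of other class I chains to NKG2A receptors, was the most abundant of the 4 heavy chains per length in each group. It stood at 122, 70.1 and 71.1 CPM in the parental libraries, 166, 123 and 89.4 in the BRG1 knockout, and 170, 164 and 173 in the BRM knockout. All BRM knockout libraries lay above all parental ones, and the BRG1 knockout overlapped both. HLA-E rose 1.93-fold in the BRM knockout, a log2 fold change of 0.95 ± 0.26 (edgeR adjusted p = 0.014). Without parental replicate 2, or without parental replicate 3, it was 0.81 and missed the threshold (adjusted p = 0.067 each time). In the BRG1 knockout the log2 value was 0.52 ± 0.25 (adjusted p = 0.12), which passed without parental replicate 1 (0.83, adjusted p = 0.018) or without BRG1 knockout replicate 3 (0.65, adjusted p = 0.033).

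HLA-F, a non-classical chain found as open conformers as well as with peptide, showed the widest gap of the 9 between the knockouts. Parental libraries held 29.7, 12.7 and 13.8 CPM, the BRG1 knockout 15.1, 11 and 5.04, and the BRM knockout 50.8, 49.4 and 58.6. The BRM knockout libraries lay above the other 6, and the BRG1 knockout overlapped parental. The endothelial marker sum was also highest in the BRM knockout (47.8 to 75.5 CPM), but it was mostly KDR, with a mean of 56.6 CPM. VWF averaged 2.88 CPM there against 0.848 in parental, whereas PECAM1 averaged 0.169 against 0.574. CDH5 stayed under 1 CPM throughout. The part of these markers in the HLA-E and HLA-F values was not tested. In the BRM knockout HLA-F rose 2.83-fold (log2 1.5 ± 0.40, edgeR adjusted p = 0.014), a call lost without parental replicate 2 (1.28, adjusted p = 0.063) or replicate 3 (1.32, adjusted p = 0.065). In the BRG1 knockout the log2 value was -0.85 ± 0.40 (adjusted p = 0.11), which passed without BRG1 knockout replicate 1 (-1.27, adjusted p = 0.04). Between the knockouts HLA-F was 5.1-fold lower with BRG1 lost than with BRM lost (log2 -2.35 ± 0.41, adjusted p = 0.0011). An exonic stretch of 535 bases is shared with HLA-F-AS1 on the opposite strand, at 0.552 to 9.28 CPM, and the sources used here do not give the strand setting of the counting.

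B2M, the light chain that every peptide-loaded class I molecule needs, rose in the BRG1 knockout. It measured 487, 402 and 375 CPM in the parental libraries, 1329, 1055 and 799 in the BRG1 knockout, and 504, 596 and 679 in the BRM knockout. The 3 groups did not overlap, with parental lowest and the BRG1 knockout highest. The rise with BRG1 loss was 2.52-fold (log2 1.33 ± 0.21, edgeR adjusted p = 0.00052), and the level was 1.79-fold above the BRM knockout (log2 0.84 ± 0.21, adjusted p = 0.007). Both calls held in every alternative run. In the BRM knockout the log2 value was 0.49 ± 0.21, which missed the threshold (adjusted p = 0.082). It passed in 5 of 21 alternative runs, among them the run without BRG1 knockout replicate 3 (0.40, adjusted p = 0.049). Over all alternatives the value ranged from 0.39 to 0.68. The order of B2M over the BRG1 knockout libraries ended, like the ribosomal protein share, with replicate 3. In that library the ribosomal share was 5.42% and B2M measured 799 CPM. The relation of the 2 measures was not tested. B2M lies on chromosome 15, away from the HLA genes. The fold changes are of the gene sum, of which 78.8% went to transcripts annotated as targets of nonsense-mediated decay. The protein-coding B2M-202 held 1305, 1055 and 1707 estimated reads in the parental libraries and 1892, 2536 and 2247 in the BRG1 knockout, unscaled. Its share was 6.84% to 10.9% of B2M reads in parental and 4.04% to 7.78% in the BRG1 knockout. A 2.52-fold rise of protein-coding B2M RNA is therefore not shown.

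TAP1, the first chain of the peptide transporter, fell with BRG1 loss and not detectably with BRM loss. Its level was 71.6, 50.4 and 57 CPM in the parental libraries, 29, 17.1 and 13.8 in the BRG1 knockout, and 43.8, 57.8 and 55.6 in the BRM knockout. The BRG1 knockout lay below all other libraries, and the BRM knockout overlapped parental. TAP1 fell 2.99-fold in the BRG1 knockout (log2 -1.58 ± 0.26, edgeR adjusted p = 0.00076), and the direct comparison of the knockouts gave -1.39 ± 0.26 (adjusted p = 0.0015). Over all alternatives the former ranged from -2.01 to -1.31 and stayed past the threshold. In the BRM knockout the log2 value was -0.19 ± 0.26 (adjusted p = 0.6).

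TAP2, the partner chain, fell in both knockouts. It measured 78.6, 105 and 108 CPM in the parental libraries, 38.6, 41 and 46.3 in the BRG1 knockout, and 30.5, 38.8 and 34 in the BRM knockout. Every knockout library lay below every parental one, and the 2 knockouts overlapped each other. The fall was 2.31-fold with BRG1 loss (log2 -1.21 ± 0.17, edgeR adjusted p = 0.00022) and 2.82-fold with BRM loss (log2 -1.5 ± 0.17, adjusted p = 0.00018), and both calls held in every alternative. The difference between the knockouts was 0.29 ± 0.16 (adjusted p = 0.18). TAP2 shares 31.7% of its 31-base words with other genes, most of them with AL669918.1 on the same strand, which overlaps 2064 of its exonic bases. With the reads of AL669918.1 added, the log2 values were -1.23 and -1.60 against parental, and the difference between the knockouts was 0.37 (adjusted p = 0.049).

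TAPBP, which encodes tapasin, separated the knockouts from each other. Parental libraries held 217, 136 and 122 CPM, the BRG1 knockout 298, 230 and 207, and the BRM knockout 87.9, 141 and 135. All BRG1 knockout libraries lay above all BRM knockout libraries, and both groups overlapped parental. TAPBP was 2.02-fold higher with BRG1 lost than with BRM lost (log2 1.01 ± 0.26, edgeR adjusted p = 0.0081), in every alternative past the threshold. Against parental the log2 values were 0.63 ± 0.25 in the BRG1 knockout (adjusted p = 0.066) and -0.38 ± 0.25 in the BRM knockout (adjusted p = 0.26). The BRG1 knockout value lay near the threshold: it passed with DESeq2 (0.62, adjusted p = 0.049), with limma voom (0.66, adjusted p = 0.048) and without parental replicate 1, the high parental library (0.93, adjusted p = 0.013). It was 0.36 (adjusted p = 0.26) with the effective length offset and 0.22 (adjusted p = 0.51) on log2(TPM + 1) with limma.

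NLRC5, the class I transactivator, passed no test. Its level was 34.3, 20.7 and 24.2 CPM in the parental libraries, 23.7, 14.5 and 20.9 in the BRG1 knockout, and 23.8, 44.4 and 23.7 in the BRM knockout. Replicate 2 of the BRM knockout stood well above its group, and each knockout overlapped parental. The log2 fold changes were -0.42 ± 0.29 in the BRG1 knockout (edgeR adjusted p = 0.26) and 0.21 ± 0.29 in the BRM knockout (adjusted p = 0.59). The knockouts differed by -0.64 ± 0.29, BRG1 minus BRM (adjusted p = 0.097). By non-overlap alone, 1 gene was higher and 2 were lower in the BRG1 knockout against parental (26.1% and 27.1% of all genes), 3 higher and 1 lower in the BRM knockout (32.1% and 26.1%), and 2 higher and 4 lower between the knockouts (26.5% and 28.6%).

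**Figure D2:**
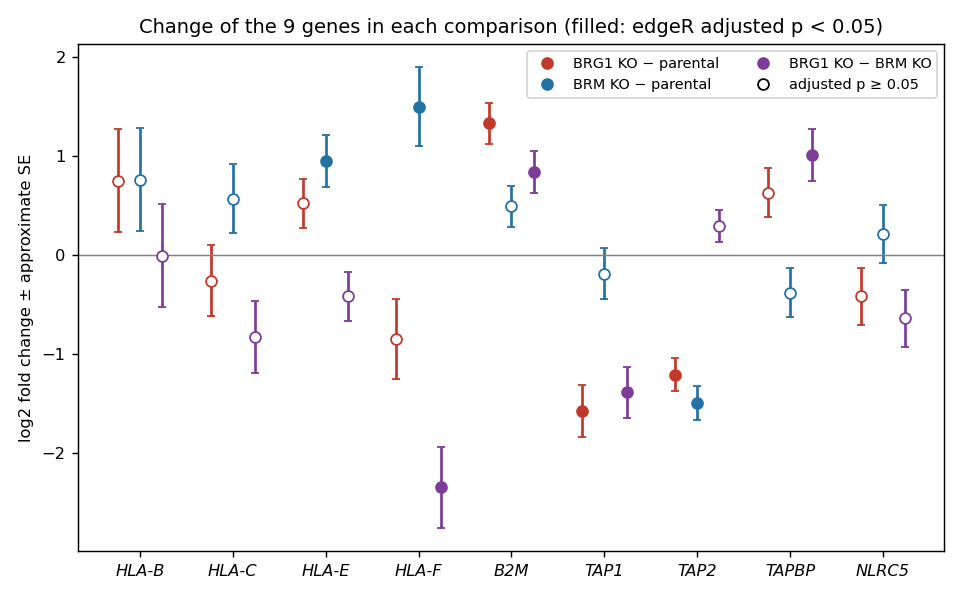
Log2 fold change (vertical axis) of the 9 genes against parental in the BRG1 knockout (red) and the BRM knockout (blue), and of the BRG1 knockout against the BRM knockout (purple), with bars of ± 1 approximate SE and filled points where the edgeR adjusted p was under 0.05. TAP2 is filled below 0 in both knockouts (-1.21 and -1.5), whereas B2M and TAP1 are filled only for comparisons that involve the BRG1 knockout and HLA-F only for those that involve the BRM knockout.

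How Salmon divided the reads over annotated transcripts differed between the genes and bears on what the gene sums hold. For HLA-B, 94.6% of the reads over the 9 libraries went to transcripts annotated as retained introns, 80.4% to HLA-B-254 alone, and 5.38% to protein-coding transcripts. The share of HLA-B-254 ran from 45.1% in BRG1 knockout replicate 3 to 94.5% in BRG1 knockout replicate 1. For HLA-C, 95.2% of the reads went to HLA-C-204, a protein-coding model of 782 bases. HLA-E and HLA-F were assigned mainly to 1 protein-coding transcript each, with 97.3% on HLA-E-201 and 88.8% on HLA-F-217.

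For B2M, 78.8% of reads were assigned to transcripts annotated as targets of nonsense-mediated decay, mainly B2M-212 (52.7%) and B2M-201 (25.6%), and 11.1% to protein-coding ones. The B2M-212 share stayed between 49% and 55.7% in every library. TAP1 reads fell to TAP1-201, protein coding, for 61.8% to 93.2% of the total by library. NLRC5-201 took 61.8% to 80.9% of NLRC5 reads in 7 libraries, 39.5% in BRG1 knockout replicate 2 and 13.5% in BRG1 knockout replicate 1. In the last, 50.3% went to NLRC5-203, a transcript at 0 in the other 8 libraries. HLA genes are the most polymorphic in the genome, and the alleles of H358 can differ from the reference transcripts. Shared 31-base words with other genes made up 12.2% of HLA-B, 15.9% of HLA-C, 10.3% of HLA-E and 3.62% of HLA-F. The part of alleles and shared sequence in these assignments was not tested, and the heavy chain values are uncertain to that extent.

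**Figure D3:**
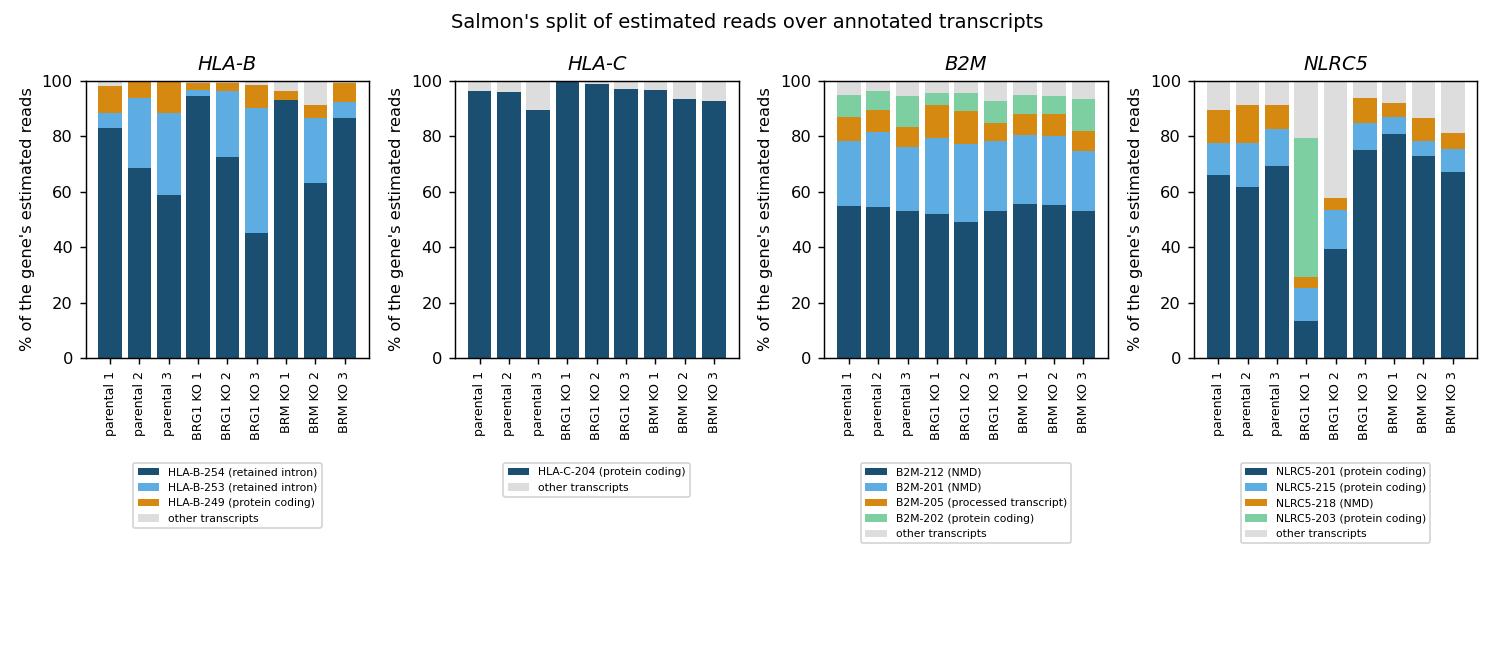
Share of each gene's estimated reads (vertical axis, percent) that Salmon assigned to its annotated transcripts in each of the 9 libraries, for HLA-B, HLA-C, B2M and NLRC5, with NMD for nonsense-mediated decay and grey for transcripts under 5% of the gene's reads. HLA-B-254, a retained-intron model, takes 45.1% to 94.5% of HLA-B reads, and NLRC5-203 appears in BRG1 knockout replicate 1 alone (50.3%).

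The genes around the 9, taken from lists of the pathway, are given next by step. Their counts are to be read against all genes tested, of which 21.6% were higher and 21.9% lower with BRG1 loss (median -0.01), and 21.0% and 16.4% with BRM loss (median 0.09). No list was tested as a set, and the lists are small. Among the 5 genes of the immunoproteasome and its activator, none was higher and 2 were lower in the BRG1 knockout, and 1 was lower in the BRM knockout. PSMB9, an interferon-inducible catalytic subunit whose gene lies head to head with TAP1 on chromosome 6, measured 32.6, 18.3 and 25.2 CPM in the parental libraries, 7.7, 3.79 and 3.32 in the BRG1 knockout, and 6.25, 10.5 and 9.97 in the BRM knockout. It fell in both knockouts, with log2 values of -2.36 ± 0.36 (edgeR adjusted p = 0.00041) and -1.51 ± 0.34 (adjusted p = 0.0062). TAP1 beside it fell with BRG1 loss (-1.58) and gave -0.19 with BRM loss. PSMB8, the immunoproteasome subunit encoded between TAP2 and TAP1, fell in the BRG1 knockout (-1.0 ± 0.25, adjusted p = 0.0073) and measured -0.29 ± 0.24 in the BRM knockout (adjusted p = 0.38). PSME1, a subunit of the PA28 activator, was lower in the BRG1 than in the BRM knockout (-0.80 ± 0.20, adjusted p = 0.0073). Of the 3 constitutive catalytic subunits that these replace, none passed with BRG1 loss, while PSMB7 (-0.93 ± 0.18, adjusted p = 0.0031) and PSMB6 (-0.59 ± 0.20, adjusted p = 0.037) fell with BRM loss.

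Of 8 peptide-trimming and loading genes, 2 were higher and 4 lower in the BRG1 knockout, against 21.6% and 21.9% of all genes. In the BRM knockout 1 was higher and 4 lower, against 21.0% and 16.4%. The medians were -0.54 and -0.41, against -0.01 and 0.09 for all genes. The members of the loading complex that rose were PDIA3, the ERp57 disulfide isomerase bound to tapasin, and CALR, the chaperone calreticulin. PDIA3 measured 612, 589 and 584 CPM in the parental libraries, 1440, 1785 and 1504 in the BRG1 knockout, and 790, 739 and 861 in the BRM knockout. It rose in both, by 1.41 ± 0.15 (edgeR adjusted p = 3.8e-05) and 0.42 ± 0.14 (adjusted p = 0.039) on the log2 scale. CALR moved in opposite directions, rising with BRG1 loss (0.74 ± 0.16, adjusted p = 0.0035) and falling with BRM loss (-0.50 ± 0.16, adjusted p = 0.029), a difference of 1.24 ± 0.16 (adjusted p = 0.00013). Both aminopeptidases that trim peptides in the endoplasmic reticulum fell with BRG1 loss, ERAP1 by 1.09 ± 0.23 (adjusted p = 0.0029) and ERAP2 by 1.18 ± 0.21 (adjusted p = 0.001). With BRM loss ERAP2 fell by 0.93 ± 0.21 (adjusted p = 0.0052), ERAP1 measured -0.31 ± 0.22 (adjusted p = 0.3), and UGGT1, the glycoprotein quality-control enzyme, fell by 0.92 ± 0.20 (adjusted p = 0.0043). Named after their values were seen, the remaining lower calls were TAPBPL, a peptide editor related to tapasin, in both knockouts (-2.17 ± 0.35 and -3.38 ± 0.38, adjusted p = 0.00066 and 0.00018), and the aminopeptidase LNPEP with BRG1 loss (-0.74 ± 0.26, adjusted p = 0.041).

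Of 13 transcription factors of class I promoters, 1 was higher and 3 lower in the BRG1 knockout, and none was higher and 4 were lower in the BRM knockout, against 21.9% and 16.4% of all genes lower. IRF1, the interferon-induced factor of the IRF element, measured 82.4, 65.6 and 74.7 CPM in the parental libraries, 40.1, 30 and 21.1 in the BRG1 knockout, and 42.3, 37.6 and 42.9 in the BRM knockout. It fell in both, by 1.29 ± 0.21 (edgeR adjusted p = 0.00072) and 0.86 ± 0.21 (adjusted p = 0.0091) on the log2 scale. NFKB1, which encodes the p50 subunit of NF-kB, fell by 1.19 ± 0.13 (adjusted p = 4.7e-05) and 0.78 ± 0.13 (adjusted p = 0.0011). RELA, another NF-kB subunit gene, named after its values were seen, passed no test against parental. It measured -0.07 ± 0.13 with BRG1 loss (adjusted p = 0.72) and 0.33 ± 0.13 with BRM loss (adjusted p = 0.078). Genes with matches included ones that rose, ones that fell and ones that were not called. The B2M window holds 2 IRF matches and 1 NF-kB match and B2M rose in the BRG1 knockout, while 1 of the TAP1 windows holds as many and TAP1 fell there. TAP2, with 2 IRF matches and no NF-kB match, fell in both knockouts, and TAPBP (2 IRF matches and 1 NF-kB match), HLA-F (1 IRF match), HLA-B and HLA-C passed no test against parental in the BRG1 knockout. Binding at these letters was not analysed here. IRF2 fell with BRG1 loss (-0.80 ± 0.20, adjusted p = 0.0084). RFXANK, a subunit of the RFX complex that NLRC5 joins at class I promoters, rose there (1.02 ± 0.18, adjusted p = 0.0011), and NFYB, a subunit of the factor that binds CCAAT boxes, fell with BRM loss (-1.23 ± 0.16, adjusted p = 0.00039), as did ATF1 (-0.41 ± 0.15, adjusted p = 0.047).

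Of 13 interferon receptor and signalling genes, 9 were higher and 0 lower with BRG1 loss, against 21.6% and 21.9% of all genes, with a median of 0.60. With BRM loss 6 were higher and 2 lower, against 21.0% and 16.4%, with a median of 0.39. IFNGR2, a chain of the interferon-gamma receptor, measured 30.3, 21 and 17.2 CPM in the parental libraries, 99, 127 and 142 in the BRG1 knockout, and 54.3, 51 and 59.4 in the BRM knockout. It rose in both, by 2.43 ± 0.22 (edgeR adjusted p = 1.7e-05) and 1.27 ± 0.21 (adjusted p = 0.0013), as did IFNAR2, a chain of the type I receptor, by 2.71 ± 0.29 (adjusted p = 4.4e-05) and 2.14 ± 0.28 (adjusted p = 0.00039). IRF9, the DNA-binding part of ISGF3, rose most with BRM loss (2.32 ± 0.25, adjusted p = 0.00015), and differed between the knockouts by -1.5 ± 0.24 (adjusted p = 0.00049). The list also holds SOCS3, a feedback inhibitor of cytokine signalling, among the genes that rose, by 1.22 ± 0.17 with BRG1 loss (adjusted p = 0.00025). The lower calls with BRM loss were the kinase JAK2 (-0.75 ± 0.19, adjusted p = 0.011) and the phosphatase PTPN2 (-0.51 ± 0.18, adjusted p = 0.043), the latter named after its values were seen.

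Of 9 interferon-gamma targets outside class I, 6 were tested. With BRG1 loss 1 was higher, 4 were lower and 1 did not pass, against 21.6% higher and 21.9% lower of all genes. With BRM loss 0 were higher, 3 were lower and 3 did not pass, against 21.0% and 16.4%. GBP1, a guanylate-binding protein, fell by 1.42 ± 0.22 (edgeR adjusted p = 0.00043) and 0.88 ± 0.21 (adjusted p = 0.0084). GBP2, of the same family, rose with BRG1 loss (2.80 ± 0.68, adjusted p = 0.0084), with parental libraries at 15.5, 2.79 and 3.72 CPM and the BRG1 knockout at 86.3, 32.6 and 33.9. WARS1, a tryptophanyl-tRNA synthetase, fell with BRG1 loss (-0.44 ± 0.14, adjusted p = 0.026). The other lower calls, named after their values were seen, were GBP4 in both knockouts, IDO1 with BRG1 loss and GBP5 with BRM loss. GBP4 had 561, 116 and 280 reads in the parental libraries, with replicate 1 highest. It had 34, 16 and 22 in the BRG1 knockout and 16, 20 and 30 in the BRM knockout. IDO1, a tryptophan-degrading enzyme, had 510, 100 and 174 reads in the parental libraries, again with replicate 1 highest. It had 8, 0 and 0 in the BRG1 knockout, and 130, 154 and 241 in the BRM knockout, which overlapped parental. The chemokine genes CXCL9, CXCL10 and CXCL11, classical readouts of interferon-gamma, stayed at or under 0.123 CPM in every library and were not tested.

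**Figure D4:**
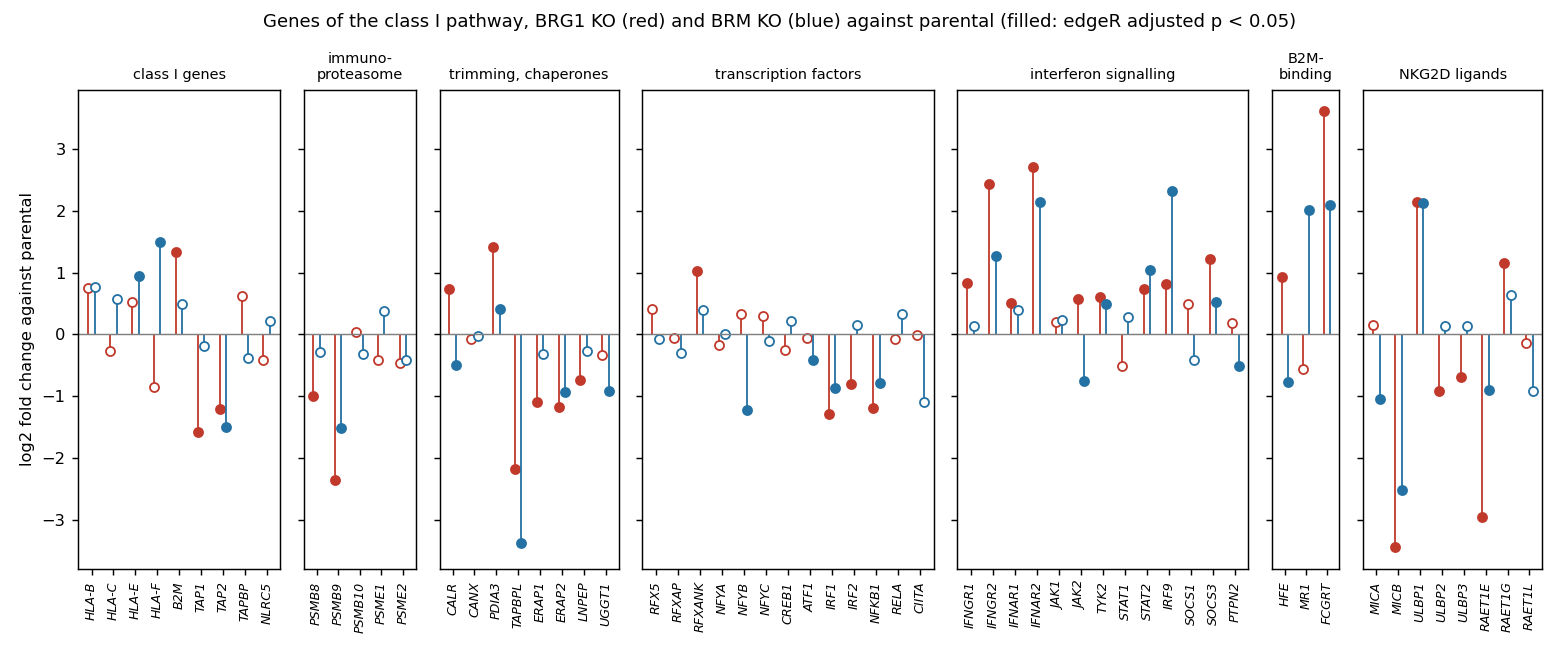
Log2 fold change against parental (vertical axis) of the tested genes of each list in the BRG1 knockout (red) and the BRM knockout (blue), filled where the edgeR adjusted p was under 0.05. The immunoproteasome panel has filled points below 0 only, PSMB9 lowest (-2.36 and -1.51), while the interferon signalling panel has mostly filled points above 0, IFNAR2 among the highest (2.71 and 2.14).

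B2M also pairs with class I-like proteins outside the HLA set. Of the 3 tested (of 4 listed), 2 rose in each knockout, against 21.6% of all genes with BRG1 loss and 21.0% with BRM loss. With BRM loss 1 was lower, against 16.4%. FCGRT, the neonatal Fc receptor heavy chain, measured 17, 6.97 and 8.32 CPM in the parental libraries, 132, 140 and 122 in the BRG1 knockout, and 46.3, 40.1 and 51 in the BRM knockout. It rose by 3.61 ± 0.31 (edgeR adjusted p = 1e-05) and 2.09 ± 0.29 (adjusted p = 0.00045), in the BRG1 knockout together with B2M. MR1, which presents microbial vitamin B metabolites, rose with BRM loss (2.01 ± 0.30, adjusted p = 0.00071), and measured -0.56 ± 0.30 with BRG1 loss (adjusted p = 0.15). That contrast between the knockouts, -2.57 ± 0.31 (adjusted p = 8.3e-05), stands beside -2.35 for HLA-F in the same comparison. HFE, the iron-regulating relative, rose with BRG1 loss (0.93 ± 0.23, adjusted p = 0.0081) and fell with BRM loss (-0.77 ± 0.23, adjusted p = 0.024).

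Stress ligands of the NKG2D receptor, class I relatives that mark cells for natural killer cells, included calls in both directions. Of 8, 2 were higher and 4 lower with BRG1 loss (43.5% of all genes called in either direction), and 1 higher and 3 lower with BRM loss (37.4%). MICB fell from 20.5, 19.8 and 17.6 CPM in the parental libraries to 2.36, 1.47 and 1.49 in the BRG1 knockout and 2.31, 4.61 and 3.24 in the BRM knockout. Its log2 values were -3.44 ± 0.30 (edgeR adjusted p = 1.3e-05) and -2.51 ± 0.29 (adjusted p = 0.0002). ULBP1 rose in both, by 2.15 ± 0.22 (adjusted p = 3e-05) and 2.12 ± 0.21 (adjusted p = 0.00013), and RAET1E fell by 2.95 ± 0.35 with BRG1 loss (adjusted p = 9.1e-05) and by 0.90 ± 0.32 with BRM loss (adjusted p = 0.049). ULBP1 differed between the knockouts by 0.03 ± 0.20 (adjusted p = 0.92). ULBP2 also fell with BRG1 loss (-0.92 ± 0.22, adjusted p = 0.0066) and MICA with BRM loss (-1.05 ± 0.36, adjusted p = 0.041). The remaining calls, named after their values were seen, were ULBP3 (-0.69 ± 0.25, adjusted p = 0.045) and RAET1G (1.16 ± 0.42, adjusted p = 0.045), both with BRG1 loss.

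Of 7 genes of class I turnover, 0 were higher and 2 lower with BRG1 loss, against 21.6% and 21.9% of all genes. With BRM loss 3 were higher and 1 lower, against 21.0% and 16.4%. MARCHF9, a membrane ubiquitin ligase that can take class I off the surface, fell with BRG1 loss (-1.61 ± 0.25, edgeR adjusted p = 0.00054) and rose with BRM loss (1.02 ± 0.25, adjusted p = 0.0081). SUSD6, a partner of TMEM127 in class I degradation, rose with BRM loss (0.93 ± 0.21, adjusted p = 0.006), as did the ubiquitin ligase SYVN1 (0.45 ± 0.13, adjusted p = 0.018), and TMEM127 fell with BRG1 loss (-0.63 ± 0.13, adjusted p = 0.0029). The lower call with BRM loss was MARCHF4, at 1.57, 5.82 and 3.58 CPM in the parental libraries and 0.134, 0.0903 and 0.101 in the BRM knockout. MARCHF4 was named after its values were seen.

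Over the 9 libraries, the protein-coding genes whose log2 CPM followed each of 4 class I genes most closely were ranked among 10134 genes, as a description. For B2M they were EEF1A1, the translation elongation factor 1 alpha (Pearson's r = 0.994), TOP3B (0.986) and TMEM42 (0.985). For TAP1 they were TMC8 (0.990), SLC37A2 (0.989) and MMD (0.986), whose means in the BRG1 knockout, 8.45, 1.51 and 17.9 CPM, lay below those in the parental line, 54.1, 33.9 and 46.5 CPM. For HLA-B they were SNRNP35 (0.958), FBLN2 (0.946) and ZC3H12A (0.939), and for NLRC5 HECA (0.972), DNM2 (0.947) and PTPRH (0.932). The 9 points share their groups and libraries, so these values largely restate the group and library pattern of each gene.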

How the data were processed

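The files held, per the file headers, the estimated counts and TPM values that the authors' Salmon run gave each transcript, unnormalized for the estimated counts and scaled within a library for TPM. Salmon, DESeq2 and hg38 are named in the submitters' processing notes. The sources used here do not give tool versions, the strand and bias settings or the library type. Of 203835 transcripts, 203746 matched a gene of GENCODE 29, and the other 89, at most 0.0193% of the reads of any library, were left out. The deposited estimated counts were summed per gene, rounded and tested in edgeR 4.0.16 under R 4.3.3 (TMM, filterByExpr, glmQLFit robust) in 1 model of all 9 libraries (31969961 to 40679073 reads), with 6 residual degrees of freedom, a common biological coefficient of variation of 0.253, and Benjamini-Hochberg adjustment over 18205 genes at a threshold of 0.05. The SE is the absolute log2 fold change over the square root of F. TPM was summed per gene. Alternatives used DESeq2 1.42.0, limma 3.58.1, other filters and scalings, the replicate block, libraries left out and, added after the data were seen, a GC content and length correction and the reads of AL669918.1. The method was tested on simulated data.

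The members, lists and rule for named genes were chosen with earlier results of these data known. Named were the 9 genes, the edited genes, up to 4 called genes per list and comparison by size of change (mean log2 CPM of 1 or more), and the 3 genes of closest pattern (mean log2 CPM of 3 or more). Other genes were named after their values were seen. Replicates of a group differed beyond counting noise, and counts of reads carry no molecular identifiers.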

Additional observations from a re-analysis of the deposited data

How the results depend on the processing

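Against parental, the calls of B2M, TAP1 and TAP2 in the BRG1 knockout and of TAP2 in the BRM knockout, and between the knockouts those of HLA-F, B2M, TAP1 and TAPBP, held in every alternative run. The number of the 9 genes called higher in the BRG1 knockout, 1 in the main analysis, was 2 with DESeq2, 2 with limma voom, and 1 to 3 with 1 library left out, the 3 arising without parental replicate 1 and without BRG1 knockout replicate 3. It was 4 with both left out together, a pair chosen because earlier results of these data showed them apart from their groups. In the BRM knockout the number higher, 2, was 1 with no filter (HLA-F 1.41, adjusted p = 0.082), 0 to 3 with 1 library left out, the 0 arising without parental replicate 2 and without parental replicate 3, and 4 with both doubted libraries out. The number lower, 1, was 2 with the GC content and length correction, which added TAPBP (-0.68, adjusted p = 0.036). That correction also passed HLA-F in the BRG1 knockout (-1.04) and B2M in the BRM knockout (0.67). Of all genes, 3930 were higher and 3984 lower in the BRG1 knockout, against 2530 and 4908 on log2(TPM + 1) with limma. Between the knockouts 3925 and 4327 became 2633 and 4667. That scaling moved the median of all genes to -0.18 in the BRG1 knockout and to -0.12 between the knockouts, and its values are to be read against those shifts. With 1 library left out, the genes higher in the BRM knockout ranged from 2457 to 4033, against 3814.

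Signs turned for values that had passed no test, and the cause was not tested. HLA-C in the BRG1 knockout was 0.06 without parental replicate 1 and 0.20 with both doubted libraries out, and ranged from -0.58 to 0.06 with 1 library left out. NLRC5 in the BRM knockout was -0.16 with the effective length offset, -0.14 on TPM, -0.03 with the GC content and length correction with or without the replicate block, and -0.15 to 0.45 with 1 library left out. HLA-B between the knockouts was 0.03 with DESeq2 size factors, 0.03 with DESeq2, 0.00 with no filter, 0.06 with the length offset, 0.44 with both doubted libraries out, and -0.49 to 0.44 with 1 left out.

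Same-numbered libraries correlated at -0.08 to 0.17 in their deviations from the group means, and libraries of different number at -0.15 to 0.12. With 3 libraries per group, these values can neither show nor exclude a pairing by replicate number. With the replicate block, the calls of the 9 genes did not change (1 higher and 2 lower with BRG1 loss, 2 and 1 with BRM loss, 2 and 2 between the knockouts), and 3641 genes were higher in the BRG1 knockout. At 102 to 429 reads per parental library, HLA-B and HLA-C are the genes that depth limits most.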
